A study of Homo sapiens with 2 samples.

Results

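The mast cell and progenitor transcription factors examined here are 10 genes: MITF, GATA1, GATA2, TAL1, LMO2, SPI1, RUNX1, MYB, CEBPA and IKZF1. They were chosen by name, and every probe set that the platform annotation gives to one of them was taken, which came to 40 of the 54675 probe sets on the array. RNA of a CD2-positive (CD2+) and of a CD2-negative (CD2-) subclone of HMC1, an established human line from a mast cell leukaemia that carries an activated KIT receptor, was hybridised to 1 Affymetrix U133 Plus 2.0 array each. The subclones had been separated by flow sorting with an antibody against CD2, a lymphocyte adhesion receptor that neoplastic mast cells can display, and the labels name no treatment and no other difference between them. Each group is therefore 1 culture of 1 sorted subclone, no value below carries an error between replicates, and no p-value can be given. CD2 itself read 219 in CD2+ and 13 in CD2- cells, in the direction of the labels.

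These factors act in combinations. MITF, a basic helix-loop-helix leucine zipper protein, is needed for mast cells and melanocytes and binds E-box sequences in genes of mast cell granules. GATA1 and GATA2 are zinc finger proteins that bind GATA sequences; in mouse, GATA2 is needed for mast cell precursors and GATA1 for mast cell maturation. TAL1 and LMO2 join GATA factors in a DNA-bound complex of blood progenitors, in which LMO2 is a bridge that does not touch DNA. RUNX1 and MYB maintain blood progenitors. SPI1, which encodes PU.1, and CEBPA direct granulocyte and monocyte development, and IKZF1 encodes Ikaros, a zinc finger factor of lymphoid development.

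RefSeq start-site windows (GRCh38.p14, 250 bases before to 50 after a gene start) were at hand for 8 of the 10 genes, 14 windows in all, with none for LMO2 and SPI1. Each window was searched on both strands for letters that factors of this group are known to bind and for the cyclic AMP response element TGACGTCA, which CREB and ATF proteins bind, and the stretch before the start is shown for 3 genes: MITF and MYB, the members with the largest differences among those compared below, and TAL1, whose brightest probe set differed little. MITF has 3 windows, and the one nearest the 3′ end of the gene is shown, at chr3:69936342-69936591 on the plus strand. MYB is shown at chr6:135181058-135181307 on the plus strand and TAL1 at chr1:47232336-47232585 on the minus strand. Capitals mark the words found.
MITF: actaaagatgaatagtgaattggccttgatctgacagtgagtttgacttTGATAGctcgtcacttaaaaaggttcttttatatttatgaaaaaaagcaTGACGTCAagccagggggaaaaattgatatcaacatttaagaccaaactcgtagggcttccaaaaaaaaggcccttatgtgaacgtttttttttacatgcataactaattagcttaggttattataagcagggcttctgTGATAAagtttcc
MYB: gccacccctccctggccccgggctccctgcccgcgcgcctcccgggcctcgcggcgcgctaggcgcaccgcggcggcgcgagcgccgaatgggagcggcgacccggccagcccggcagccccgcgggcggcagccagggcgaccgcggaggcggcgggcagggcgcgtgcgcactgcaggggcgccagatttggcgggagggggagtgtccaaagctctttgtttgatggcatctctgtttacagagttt
TAL1: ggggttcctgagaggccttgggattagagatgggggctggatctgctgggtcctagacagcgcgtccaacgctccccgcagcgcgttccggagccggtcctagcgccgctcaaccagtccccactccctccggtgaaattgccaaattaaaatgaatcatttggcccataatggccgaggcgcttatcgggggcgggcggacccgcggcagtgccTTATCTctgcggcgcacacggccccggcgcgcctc
The MITF stretch holds TGATAG at position -201, TGATAA at position -13 and TGACGTCA at position -152 from the start, the first letter of each word being counted. The other MITF windows, not shown, hold none of the words searched for. The TAL1 stretch holds TTATCT, the reverse complement of AGATAA, at position -35, and the MYB stretch holds none of the words. The GATA words AGATAA or AGATAG or TGATAA or TGATAG occurred in 3 of the 14 member windows and in 25.0% of all 35116 windows of this length, and TGACGTCA in 1 of the 14 and in 1.85% of all. The E-box words CACGTG and CATGTG were in none of the 14 windows and in 17.6% of all. The RUNX words TGTGGT and TGCGGT were in 2 of the 14 and 19.6% of all, the PU.1 word GAGGAA in 6 and 27.9%, and the MYB words CAACGG or CAACTG or TAACGG or TAACTG in 2 and 25.7%. TAL1 has 2 windows, and the one not shown holds 4 RUNX words and 1 MYB word. The words do not overlap each other in the stretches shown. A match describes letters only, and the annotation of the probe sets does not tell which MITF start site they read.

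The values are probe-set intensities on a linear scale, and each difference is the log2 of the CD2-positive minus the log2 of the CD2-negative intensity. Probe sets for Bacillus RNA, a blank for human cells, read 1 to 4 (the Bacillus level), and 13 of the 40 member probe sets lay at or below 4 on both arrays. A floor of 64 on the brighter array (log2 of 6) was used for comparison, and 8 member probe sets of 6 genes reached it. Over the 3564 genes above the floor the median difference was -0.05 and the middle 95% lay between -0.68 and 0.70. The hybridisation controls had a median of -0.18 over 18 probe sets, and centring on them moves the median of the compared genes to 0.14. Between the pair of brightest probe sets of a gene, log2 differences scattered with a standard deviation of 0.13 per probe set, over 937 genes with more than 1 above the floor, which covers probe behaviour and no variation between cultures. Mast cell markers were mostly present, with 8 of 11 measured genes above the floor and 2 at the Bacillus level. Their summed intensity was 10422 in CD2+ cells and 6891 in CD2- cells. Markers of T and NK cells (0 of 15 above the floor, 12 at the Bacillus level, summed 58 in CD2+ and 63 in CD2- cells), B cells (0 of 7, 4 at that level, 72 in CD2+ and 65 in CD2- cells), monocytes and dendritic cells (0 of 10, 9 at that level, 66 in CD2+ and 62 in CD2- cells) and melanocytes (0 of 5, 3 at that level, 22 in CD2+ and 23 in CD2- cells) were low. Among granulocyte markers 1 of 9 was above the floor and 5 were at the Bacillus level, summed 2259 in CD2+ and 1232 in CD2- cells. Nearly all of that sum was PRG2, which encodes the major basic protein of eosinophil granules and read 2213 in CD2+ and 1194 in CD2- cells. Among erythroid and megakaryocyte markers 1 of 8 was above the floor and 4 were at the Bacillus level, summed 188 in CD2+ and 203 in CD2- cells. The part of these markers in the differences below was not tested.

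Of the 6 factor genes above the floor, 5 read higher and 1 read lower in the CD2-positive subclone, with a median log2 difference of 0.43 (mean 0.41). None differed by 2-fold or more, against 1.96% of all compared genes, and none of the 8 probe sets did, against 2.0% of all probe sets above the floor. At 1.5-fold or more, MITF and MYB were higher and none was lower, which is 2 of 6, against 4.29% of compared genes higher and 3.82% lower by that size. By probe set it was 3 of 8, against 4.73%. A positive difference of any size was found for 41.9% of compared genes. The list was chosen with these values known, so the counts describe it and support nothing. A whole culture was lysed, so fewer cells with an RNA and less of it per cell cannot be told apart for any gene below.

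**Figure D1:**
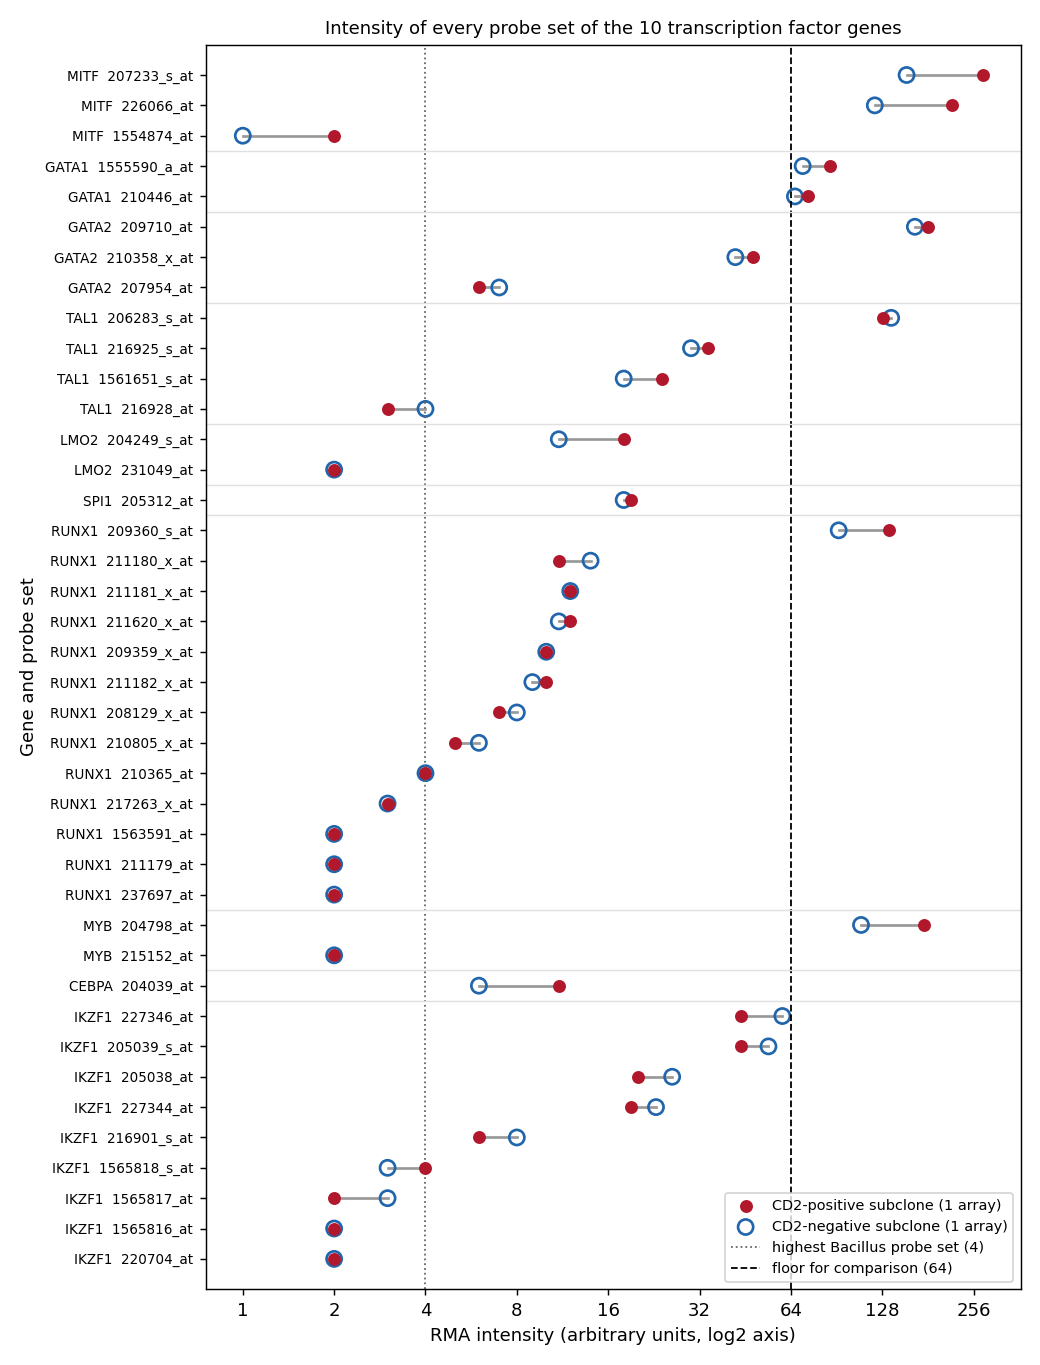
RMA intensity (arbitrary units, log2 axis) of all 40 probe sets of the 10 genes, filled red circles for the CD2-positive and open blue circles for the CD2-negative subclone, 1 array each; the dotted line marks 4, the highest Bacillus probe set, and the dashed line the floor of 64. Both MITF probe sets right of the floor lie well to the right in the CD2-positive subclone, at 276 and 218 in CD2+ against 154 and 121 in CD2- cells, and the 5 IKZF1 probe sets above 4 lie to the left.

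MITF had the largest difference of the factors above the floor. Its brightest probe set (207233_s_at) read 276 in CD2+ and 154 in CD2- cells, which is 1.79-fold, and a separate probe set (226066_at) read 218 in CD2+ and 121 in CD2- cells, which is 1.80-fold. The log2 differences of 0.84 and 0.85 lay 0.01 apart, and the brightest probe sets of 4.06% of the 937 genes lay as close. The remaining MITF probe set (1554874_at) read 2 in CD2+ and 1 in CD2- cells, at the Bacillus level, and allows no fold. Of the 3564 compared genes, 65 (1.82%) had a difference as positive as that of MITF or more so, and among the 814 compared genes within 0.5 of its mean log2 level 1.97% lay as far from 0. Centred on the hybridisation controls MITF stood at 1.02, just past 2-fold. Its 20 nearest compared genes on chromosome 3, 10 on each side, had a median difference of -0.01.

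The GATA factors were close to equal in both subclones. GATA1 read 86 in CD2+ and 70 in CD2- cells on its brightest probe set (0.30) and 73 in CD2+ and 66 in CD2- cells on the other (0.15). GATA2 read 181 in CD2+ and 164 in CD2- cells on its brightest probe set (0.14), 48 in CD2+ and 42 in CD2- cells on one below the floor (0.19) and 6 in CD2+ and 7 in CD2- cells on the one left. Of the compared genes, 31.5% lay as far from 0 as GATA1 and 61.1% as far as GATA2. The difference of GATA2 was about the size of the scatter between probe sets of a gene, and both genes stayed on the positive side under every scaling tried. The neighbours of GATA1 on chromosome X and of GATA2 on chromosome 3 had medians of 0.00 and 0.03.

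TAL1, which pairs with E proteins to bind E-boxes beside GATA sites, gave no single direction. Its brightest probe set (206283_s_at) read 129 in CD2+ and 137 in CD2- cells, which is -0.09, or 0.10 after centring on the hybridisation controls. Below the floor 2 further probe sets leaned the other way, at 34 in CD2+ and 30 in CD2- cells (0.18) and 24 in CD2+ and 18 in CD2- cells (0.42), and the one left read 3 in CD2+ and 4 in CD2- cells. LMO2, the bridging protein of the TAL1 complex, lay below the floor at 18 in CD2+ and 11 in CD2- cells, which is 0.71 with a range from 0.61 to 0.82 that the rounding of the values to whole numbers allows. Its other probe set read 2 on both arrays.

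RUNX1 and MYB, the progenitor factors, read higher in the CD2-positive subclone on their brightest probe sets. MYB read 176 in CD2+ and 109 in CD2- cells, which is 1.61-fold (0.69), on the only one of its probe sets above the Bacillus level. Of compared genes, 2.67% had a difference as positive and 5.08% lay as far from 0. All 13 RUNX1 probe sets are annotated to 2 further uncharacterised loci as well, so their signal cannot be given to RUNX1 alone. The brightest (209360_s_at) read 135 in CD2+ and 92 in CD2- cells, which is 1.47-fold (0.55). The other 12 read at most 14 on either array, and of the 7 among them above the Bacillus level 2 were higher, 3 lower and 2 equal. The bright RUNX1 value is thus carried by 1 probe set, and the mean over all 13 gives a difference of 0.00. Neighbours of MYB on chromosome 6 had a median of -0.07 and those of RUNX1 on chromosome 21 a median of -0.06.

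**Figure D2:**
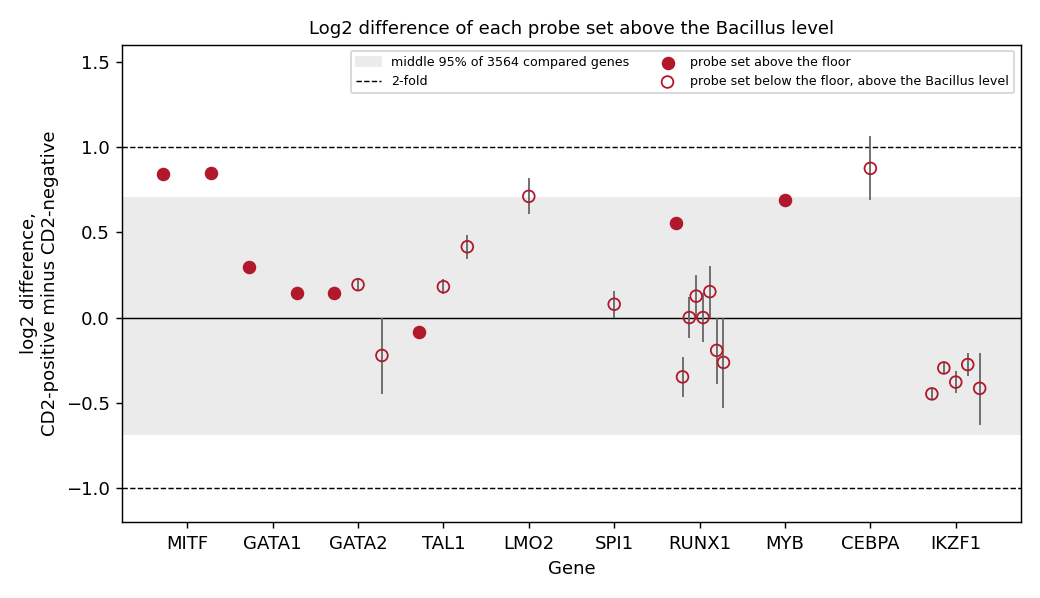
Log2 difference, CD2-positive minus CD2-negative, of the 27 member probe sets above the Bacillus level, by gene; filled circles are above the floor, open circles below it, bars show the range that rounding to whole numbers allows, the grey band is the middle 95% of 3564 compared genes and dashed lines mark 2-fold. The MITF pair at 0.84 and 0.85 lies above the band, as do CEBPA at 0.87 and LMO2 at 0.71, both below the floor. The 5 IKZF1 probe sets lie between -0.45 and -0.28, and the RUNX1 probe sets scatter on both sides of 0.

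The granulocyte and monocyte factors read low, with no probe set above the floor. SPI1 read 19 in CD2+ and 18 in CD2- cells on its single probe set (0.08). CEBPA read 11 in CD2+ and 6 in CD2- cells, a difference of 0.87 for which rounding alone allows 0.69 to 1.06. The value of 6 lies near the Bacillus level of 4, and no other background correction was tried. Genes that PU.1 and C/EBP factors activate in myeloid cells were likewise low, with 0 of 13 measured above the floor and 9 at the Bacillus level. CSF2RA, a chain of the GM-CSF receptor, read 49 in CD2+ and 44 in CD2- cells, and ITGAM, the integrin CD11b, read 41 in CD2+ and 38 in CD2- cells.

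IKZF1 was the member with the most uniform negative values. Its 5 probe sets above the Bacillus level read 44, 44, 20, 19 and 6 in CD2+ and 60, 54, 26, 23 and 8 in CD2- cells, listed in 1 order. All 5 were lower in the CD2-positive subclone, with log2 differences between -0.45 and -0.28, and when centred on the hybridisation controls they lay between -0.27 and -0.09. None reached the floor, so IKZF1 is not among the 6 genes compared, and probe sets of 1 gene are no replicates of a culture. A negative difference was found for 55.7% of the compared genes, all above the floor, and no such share was taken below it. The other 4 IKZF1 probe sets read 2 to 4 in CD2+ cells and 2 to 3 in CD2- cells. Genes that Ikaros regulates in lymphoid cells, such as RAG1, IGLL1 and IL7R, had 0 of 9 measured above the floor and 7 at the Bacillus level. The 20 compared neighbours of IKZF1 on chromosome 7 had a median of -0.08, with none past 1.5-fold.

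**Figure D3:**
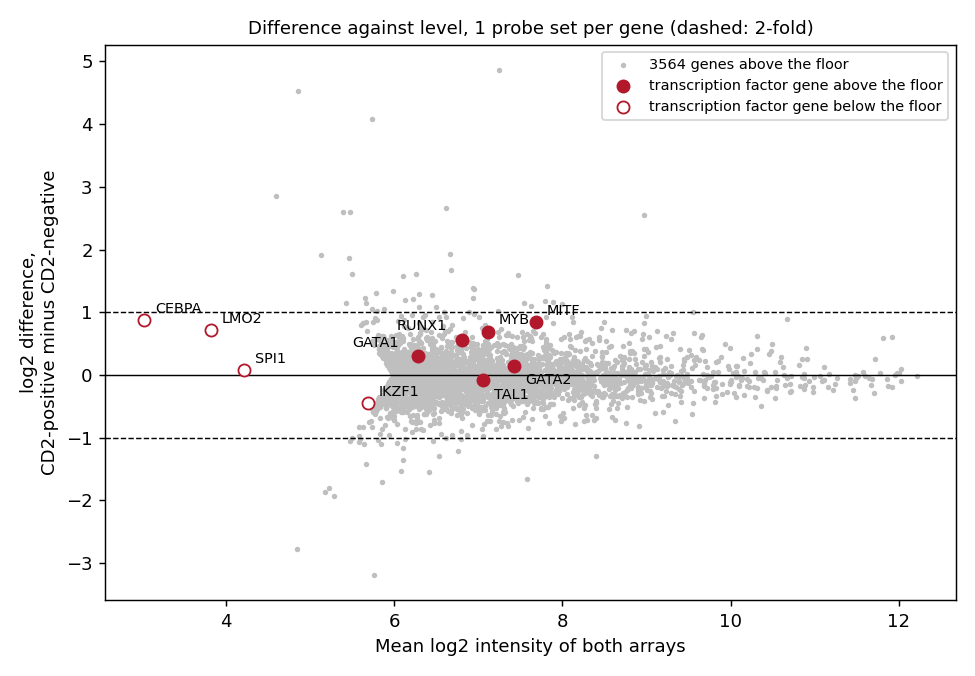
Log2 difference, CD2-positive minus CD2-negative, against mean log2 intensity of both arrays, 1 probe set per gene; grey points are the 3564 genes above the floor, filled red circles the 6 factor genes above it and open circles the 4 below it, and dashed lines mark 2-fold. MITF at 0.84 and MYB at 0.69 lie near the upper edge of the grey points at their level, and TAL1 at -0.09 and GATA2 at 0.14 lie within them.

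Lists of related factors and of target genes, drawn up with earlier results of these arrays known, give the surroundings of the 10 genes. Paralogues were mostly silent or flat. Of 27 measured, 11 were at the Bacillus level and 6 were above the floor. Of these 6, 1 was higher, 4 lower and 1 equal, none by 1.5-fold, against 8.11% of compared genes. Their median was -0.13, or 0.05 with the hybridisation controls set to 0. DDIT3, a stress-induced C/EBP relative, lay farthest from 0 at 121 in CD2+ and 151 in CD2- cells (-0.32). The MITF relative TFE3, which binds the same E-boxes, read 88 in CD2+ and 106 in CD2- cells (-0.27), and the TAL1 relative LYL1 read 240 in CD2+ and 212 in CD2- cells (0.18). RUNX3 read 137 on both arrays, and CEBPB, a C/EBP factor of inflammatory gene control, read 775 in CD2+ and 822 in CD2- cells (-0.08, and positive with those controls set to 0).

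Partners and cofactors had 10 of 25 measured genes above the floor, 8 higher and 2 lower, with a median of 0.38. A positive difference was found for 41.9% of compared genes. By 1.5-fold 2 of the 10, GFI1 and TCF3, were higher, against 4.29% of compared genes. Both reached the floor only on the CD2-positive array, where they read higher, so the count supports nothing. None of the 10 was past 2-fold, against 1.96% of compared genes. GFI1, a zinc finger repressor of progenitors, lay farthest from 0 at 100 in CD2+ and 63 in CD2- cells (0.67). TCF3, which encodes the E proteins that pair with TAL1, read 84 in CD2+ and 56 in CD2- cells (0.58) on the only one of its 14 probe sets above the floor. CBFB, the subunit that stabilises RUNX proteins on DNA, read 163 in CD2+ and 112 in CD2- cells (0.54), and its other probe set above the floor gave 0.12. On the negative side were HINT1, a protein that restrains MITF activity in rodent mast cells, at 112 in CD2+ and 146 in CD2- cells (-0.38), and the acetyltransferase gene CREBBP at 102 in CD2+ and 130 in CD2- cells (-0.35). The 4 probe sets of HINT1 above the floor lay between -0.39 and -0.24.

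Other progenitor factors had 13 of 18 genes measured by a probe set of their own, 5 of them above the floor, with 4 higher, 1 lower and a median of 0.18. Of all compared genes 41.9% had a positive difference and 1.21% were higher by 2-fold or more. MYCN, a MYC-family growth regulator, was the one factor gene of any list past 2-fold above the floor, at 214 in CD2+ and 106 in CD2- cells (2.02-fold, 1.01). Its next brightest probe set read 14 in CD2+ and 8 in CD2- cells. Its 20 compared neighbours on chromosome 2 had a median of 0.37, 18 of them were positive and 6 were at least 1.5-fold higher, against the medians of -0.01, -0.07 and -0.06 around MITF, MYB and RUNX1. The part of the chromosome in its difference was not tested. MYC read 72 in CD2+ and 75 in CD2- cells (-0.06), which becomes positive when centred on the hybridisation controls. Genes that MYB activates had 3 of 9 members above the floor, 2 higher and 1 lower, with a median of 0.05 and GFI1 farthest from 0.

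Genes that MITF or GATA factors activate in mast cells read higher in the CD2-positive subclone more often than lower. Of 16 measured MITF targets 8 were above the floor, 6 higher and 2 lower, with a median of 0.54, and 2 were past 2-fold, against 1.21% of compared genes higher by that size. Of 12 measured GATA targets 8 were above the floor and all 8 were higher, with a median of 0.42, against 41.9% of compared genes with a positive difference. These 8 are the same genes as the 8 mast cell markers above the floor, so they are no separate observation. The MITF and GATA lists share 6 genes, 5 of them above the floor, and both owe their values past 2-fold to the same 2 genes. CPA3, the gene of a granule carboxypeptidase, read 1220 in CD2+ and 207 in CD2- cells (2.56), and HPGDS, the prostaglandin D synthase gene, read 187 in CD2+ and 80 in CD2- cells (1.22). The tryptase genes TPSAB1 and TPSB2, whose near-identical sequences leave the signal of each uncertain, were past 1.5-fold. TPSAB1 read 4806 in CD2+ and 3142 in CD2- cells (0.61), and TPSB2 read 4415 in CD2+ and 2929 in CD2- cells (0.59). HDC, which encodes the enzyme that makes histamine, read 1715 in CD2+ and 1219 in CD2- cells (0.49). Of the other MITF targets above the floor, 3 lay closer to 0: KIT, the stem cell factor receptor and a target of both factors, read 1373 in CD2+ and 1328 in CD2- cells (0.05), CADM1, a mast cell adhesion molecule, read 135 in CD2+ and 137 in CD2- cells (-0.02), and PRF1, which encodes perforin, read 1060 in CD2+ and 1081 in CD2- cells (-0.03). The last 2 become positive when centred on the hybridisation controls. SLC18A2, the transporter that loads histamine into granules, read 504 in CD2+ and 396 in CD2- cells (0.35).

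**Figure D4:**
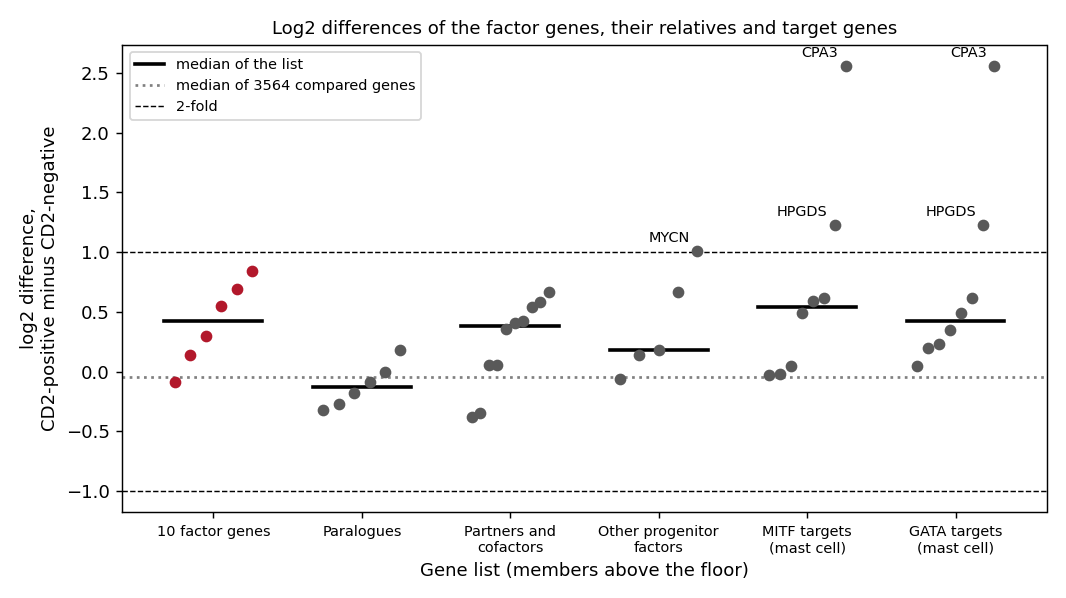
Log2 difference, CD2-positive minus CD2-negative, of each gene above the floor in 6 lists, red for the factor genes and grey for relatives, partners and targets; horizontal bars are list medians, the dotted line is the median of 3564 compared genes (-0.05) and dashed lines mark 2-fold. The factor genes (median 0.43), their partners (0.38) and the GATA targets (0.42) centre above the dotted line, the paralogues (-0.13) below it, and CPA3 at 2.56 stands apart from the other targets.

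Target genes of the same factors in other lineages were low. MITF targets of melanocytes had 0 of 11 measured genes above the floor and 7 at the Bacillus level, TYR and MLANA among them. Erythroid targets of GATA1 and TAL1 had 10 genes measured, 5 at the Bacillus level and 2 above the floor. Both of the latter were lower in the CD2-positive subclone, against 55.7% of compared genes with a negative difference. HBD, the delta-globin gene, read 20 in CD2+ and 76 in CD2- cells (-1.93), on a probe set that related globin genes leave uncertain. It reached the floor only on the CD2-negative array, and 0.758% of compared genes were lower by 2-fold or more. The transferrin receptor gene TFRC read 149 in CD2+ and 188 in CD2- cells (-0.34).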

How the data were processed

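RNA of 1 CD2-positive and 1 CD2-negative HMC1 subclone was measured on 1 array each. The deposited values are probe-set intensities, which the authors, per the submitters' processing notes, made with RMA (Affymetrix Expression Console 1.1). The linear scale and the rounding to whole numbers were seen in the values. RMA gives both arrays 1 intensity distribution, so a difference in total RNA is not kept, and the background step, whose variant the labels do not name, sets low values. Values were converted to log2. The annotation gave 41097 probe sets 1 gene symbol, 1801 several and 11777 none, and 41043 identifiers were found in the RefSeq table of GCF_000001405.40, which gave current symbols and gene order. The files name no build, so that table's coordinates are not printed; the windows shown carry their own. Each gene took the values of its brightest probe set by mean log2, RUNX1 by its shared probe sets. Genes were compared at an intensity of 64 or more on the higher array and counted at 2-fold, with 1.5-fold as an alternative. The number of arrays limits precision, and no test was run. Members, lists and rules were chosen with earlier results of these data known. The genes named are the 10 members, up to 4 genes of each list past 2-fold or else the one above the floor farthest from 0, CD2 and KIT; further names followed after seeing values. Results were recomputed with other floors, fold rules, gene summaries and centrings, and with a lowess correction with a span of 0.3. The size rule and the word search were tested on simulated data. Python 3.11, pandas 2.3.3 and statsmodels 0.14.6 were used.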

Additional observations from a re-analysis of the deposited data

How the results depend on the processing

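No paired analysis was possible because each group holds 1 array, and no replicate could be left out. The count of factor genes past 2-fold was 0 under 9 of 11 other settings. At 3-fold, at a floor of log2 7 and without RUNX1 it could only be 0, since these settings narrow the main one. The mean of all probe sets left 1 gene to compare. The count was 1 (MITF) when centred on the hybridisation controls and 2 (MITF and MYB) at 1.5-fold. For member probe sets the count of 0 became 2 with that centring, 3 at 1.5-fold and 1 with no floor, the last being the MITF probe set at 2 in CD2+ and 1 in CD2- cells. The median of the members was 0.30 at a floor of log2 5, 0.55 at a floor of 7, 0.61 when centred on the hybridisation controls, 0.22 with the mean of all probe sets, where only GATA1 was above the floor, and 0.30 without RUNX1, an alternative added after seeing the data. All compared genes past 2-fold numbered 70 as reported, 125 at a floor of 5, 32 at a floor of 7, 687 with no floor, 289 at 1.5-fold, 22 at 3-fold, 39 with the mean and 37 with plain identifiers. Centring on the hybridisation controls turned the split of 43 higher and 27 lower (61.4% higher) into 71 and 14 (83.5%), and with no floor it was 307 and 380 (44.7%), with more lower than higher; at a floor of 7 it was 24 and 8. MITF stayed between 0.84 and 1.02 and IKZF1 between -0.45 and -0.22 over their 6 settings, while RUNX1 ranged from 0.00 to 0.74, MYB from 0.35 to 0.87 and TAL1 from -0.42 to 0.10. Apart from the settings that change which probe sets or genes enter, the cause was not tested. Probe sets near the Bacillus level of 4 allow no fold.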

Other observations

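Among the 128 other genes of the lists, 49 lay below the floor and above the Bacillus level, and 5 of these were past 2-fold, 3 higher and 2 lower in the CD2-positive subclone, against 2.44% of all 8287 genes in that range. They were picked out after their values were seen. FCER1A, the alpha chain of the IgE receptor, read 27 in CD2+ and 8 in CD2- cells. IKZF2, which encodes Helios, a relative of Ikaros, read 47 in CD2+ and 22 in CD2- cells, opposite in sign to IKZF1. GPNMB, a lysosomal membrane glycoprotein gene that MITF activates in melanocytes, read 55 in CD2+ and 25 in CD2- cells. TCF4, an E protein gene, read 13 in CD2+ and 35 in CD2- cells, opposite in sign to its relative TCF3. CCND1, which encodes cyclin D1, read 22 in CD2+ and 44 in CD2- cells. With 1 array a group no test was possible.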
